A study of Danio rerio with 14 samples.

Results

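The long arm of zebrafish chromosome 4 was examined through the peaks of acetylated lysine 27 of histone H3 (H3K27ac) that lay on it. A peak is a stretch of the genome where chromatin immunoprecipitation with the H3K27ac antibody gave more reads than the whole cell lysate of the same sample. The members were chosen by position alone, as all peaks on chromosome 4 of the GRCz11 build that start at or past 28 Mb. They numbered 3822 of the 220034 peaks in 7 lists, or 1.74%. The same lists held 4463 peaks on chromosome 4 below 28 Mb, called the short arm here, and 175697 peaks on the other 24 chromosomes.

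The study compared lymphoid tumors with normal thymus of zebrafish. The 4 tumor lists (tumors 1, 2, 3 and 4) came from tumor cells of fish that carried human IRF4 and the fluorescent marker mCherry, both driven by the zebrafish lck promoter. The paper states that these tumor cells, like the thymus cells, were sorted for mCherry. The 3 thymus lists (thymus 2, 3 and 5) came from mCherry-positive cells, sorted by flow cytometry from thymus harvested at 3 months in fish that carried mCherry alone under the same promoter. All 7 samples therefore shared the lck-driven marker, and the IRF4 transgene was in the tumor fish only. The lck promoter is active in lymphocytes, so a sorted library of either group reports on the cells that switch it on and not on the whole tissue. No age and no p53 genotype of the fish behind the tumor lists was in the labels, tumor 4 was placed in its group by its title, and how many fish a thymus library held is unclear. The p-values therefore measure the spread among these lists.

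H3K27ac is laid down by the acetyltransferases p300 and CBP at active promoters and enhancers, and it is scarce in heterochromatin. The long arm of zebrafish chromosome 4 is known as a heterochromatic, late-replicating and repeat-rich arm that holds large families of NLR immune receptor genes, zinc finger genes and 5S rRNA genes. In wild strains its end carries the region linked to sex. Sequence, gene and replication data on this build were not used here, so neither the name of the arm nor the labelled tissue was checked against markers, and regions are given by coordinates only.

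List length and peak size varied before any comparison was made. The 4 tumor lists held 19809 to 32781 peaks and the 3 thymus lists 31647 to 40335. The narrowest peak of a list was 111 ± 26.5 bp wide in tumors and 52.3 ± 2.08 bp in thymus (SD, n = 4 and 3), which limits comparisons of width between the groups. The paper reports a single figure for the depth of its ChIP-seq. The number of reads behind each list is unknown, so no counting interval could be given. Thymus 2 stood apart from the other thymus lists on the long arm and elsewhere. On the other 24 chromosomes its peaks covered 7.69 Mb, against 13.6 Mb in thymus 3 and 15.1 Mb in thymus 5. Values without thymus 2 are given for some measures only. The peak names of thymus 2 and thymus 5 carry the word batch and those of thymus 3 and all 4 tumors do not, so thymus 3 gives the value outside that label.

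Peaks were sparse on the long arm in every list. The number of peaks on the long arm was 247, 665, 549 and 273 in tumors 1, 2, 3 and 4, against 691, 715 and 682 in thymus 2, 3 and 5. The highest tumor lay below the lowest thymus list, so the groups did not overlap. As a share of its own list, the long arm held 0.93%, 2.03%, 1.82% and 1.38% of peaks in the tumors, against 2.18%, 1.77% and 1.76% in thymus. On this scale, which takes out the length of the list, tumors 2 and 3 lay within the thymus range and tumors 1 and 4 below it.

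The arm was 50.1 Mb long when measured to the last peak end, at position 78088202. Peak density on it was 4.93, 13.3, 10.96 and 5.45 peaks per Mb in tumors 1 to 4, and 13.8, 14.3 and 13.6 peaks per Mb in thymus 2, 3 and 5. On the other 24 chromosomes it was 16.8, 21.2, 18.7 and 12.7 peaks per Mb in the tumors and 20.4, 25.1 and 23.9 peaks per Mb in thymus. The long arm thus had 29.3% to 62.5% of the density of the other chromosomes in tumors and 56.9% to 67.6% in thymus. The log2 ratio of density averaged −0.95 ± 0.42 (SD, n = 7 lists), with the long arm lower in 7 of 7 lists (exact two-sided sign-flip test, p = 0.0156, adjusted p = 0.0208 by Benjamini-Hochberg over 12 tests). This p is the smallest that 7 lists allow.

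The short arm of the same chromosome lay above the other chromosomes in density in all 7 lists. It held 19.2, 25.8, 19.1 and 15.5 peaks per Mb in the tumors and 22.8, 29.2 and 27.8 peaks per Mb in thymus. The log2 ratio of long over short arm density averaged −1.14 ± 0.44 (SD, n = 7 lists) and was below 0 in 7 of 7 lists (exact two-sided sign-flip test, p = 0.0156, adjusted p = 0.0208). Among 26 units, namely the long arm, the short arm and the other 24 chromosomes, the long arm had the lowest density in all 7 lists. The next lowest were chromosome 12 in 4 lists, chromosome 9 in 2 and chromosome 14 in tumor 2, with 9.90 to 19.7 peaks per Mb.

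**Figure D1:**
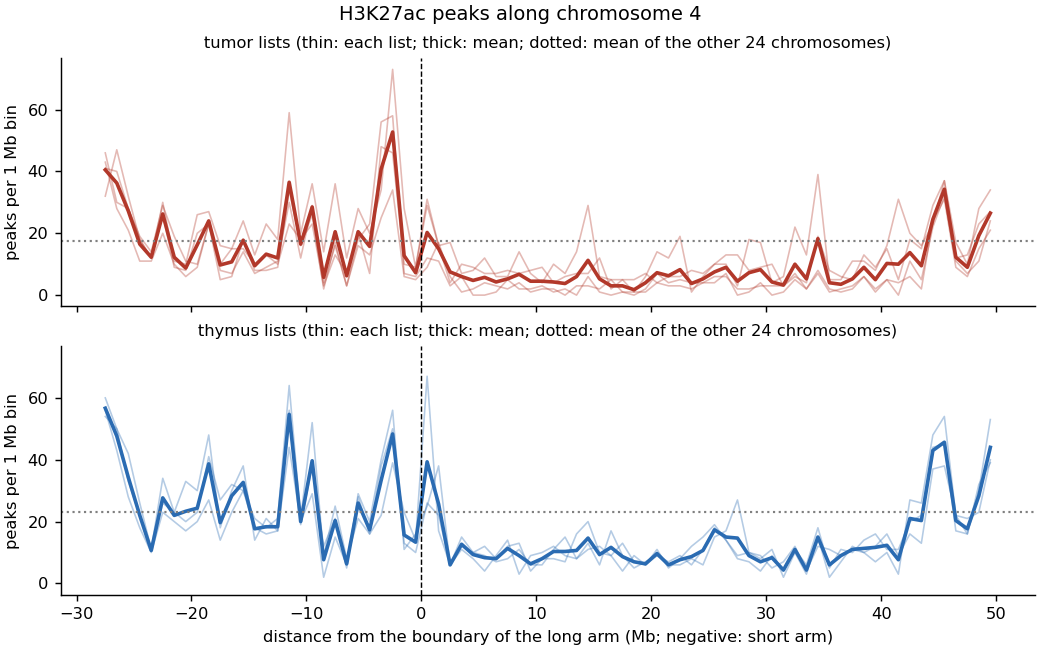
Peaks per 1 Mb bin along chromosome 4 (vertical axis, peaks per bin) against the distance from the 28 Mb boundary (horizontal axis, Mb, short arm negative). The upper panel shows the 4 tumor lists and the lower panel the 3 thymus lists, with thin lines for lists, a thick line for their mean and a dotted line for the mean density of the other 24 chromosomes. Mean counts were 14 at 26 Mb and 9.86 at 27 Mb, in the last bins of the short arm. On the long arm they were 28.4 at 28 Mb, where thymus 2 had 67 peaks, 19.6 at 29 Mb and 6.86 at 30 Mb. Counts rise again near the end of the chromosome, where the bin at 73 Mb held 31 to 37 peaks in tumors and 38 to 54 in thymus.

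The sequence covered by peaks fell further below the rest of the genome than their number did. Peaks covered 1.77, 4.78, 3.96 and 1.52 kb per Mb of the long arm in tumors 1 to 4, and 2.79, 3.79 and 3.94 kb per Mb in thymus 2, 3 and 5. The other 24 chromosomes had 9.74, 11.8, 11.04 and 6.01 kb per Mb in the tumors and 6.07, 10.7 and 11.9 kb per Mb in thymus. The log2 ratio averaged −1.63 ± 0.45 against the other chromosomes and −1.90 ± 0.48 against the short arm (SD, n = 7 lists; exact two-sided sign-flip test, p = 0.0156 and adjusted p = 0.0208 for each), lower in 7 of 7 lists both times.

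Peaks on the long arm were narrow as well as few. Their median width was 280, 264, 243 and 185 bp in tumors 1 to 4, and 160, 168 and 179 bp in thymus 2, 3 and 5. Peaks of the other 24 chromosomes had medians of 456.5, 341, 427 and 341 bp in the tumors and 182, 210 and 223 bp in thymus. The gap was wide in tumors and small in thymus, where the narrowest listed peaks were also smaller. The long arm minus the other chromosomes gave −100 ± 69.7 bp (SD, n = 7 lists), lower in 7 of 7 lists (exact two-sided sign-flip test, p = 0.0156, adjusted p = 0.0208). Against the short arm, whose medians were 320 to 461.5 bp in tumors and 186 to 239 bp in thymus, the difference was −112 ± 82.8 bp (SD, n = 7 lists; same exact test, p = 0.0156, adjusted p = 0.0208). The long arm had the narrowest median of the 26 units in all 7 lists.

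A larger share of peaks on the long arm sat at the shortest width that the list holds. That share was 4.86%, 8.72%, 6.56% and 5.13% in tumors 1 to 4 and 7.38%, 7.97% and 5.72% in thymus 2, 3 and 5. On the other 24 chromosomes it was 2.12%, 5.21%, 3.42% and 2.58% in the tumors and 6.31%, 5.46% and 4.59% in thymus. Peaks of at least 500 bp made up 16.0% of long-arm peaks and 33.3% of peaks on the other chromosomes, as means over the 7 lists. None of the 38 peaks of tumor 2 that were wider than any peak of another list lay on the long arm, and 1 lay on the short arm. The long arm held 2.03% of all peaks of tumor 2, so none among 38 is no departure from that share.

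**Figure D2:**
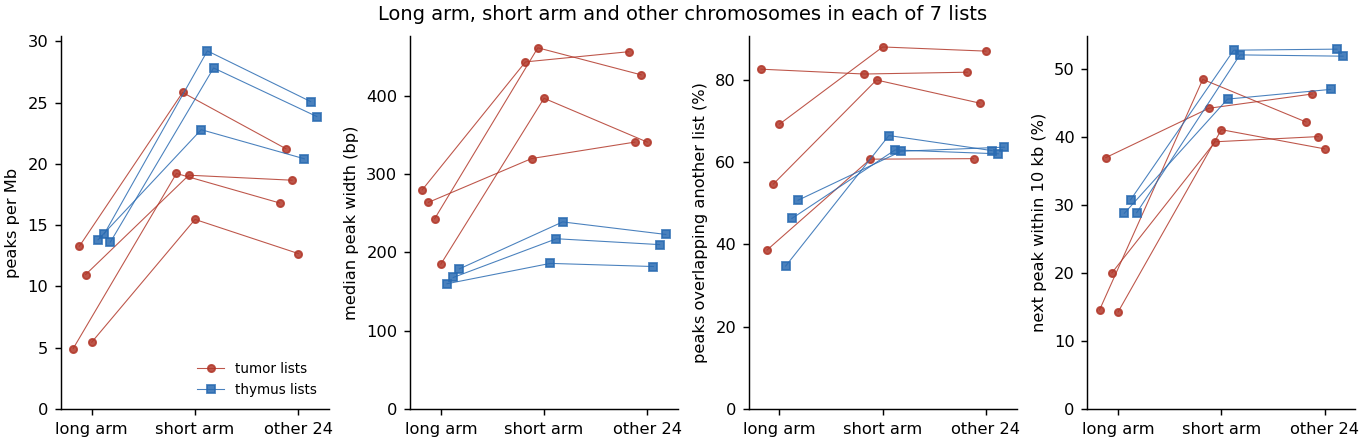
Peak measures of the long arm, the short arm and the other 24 chromosomes in each of the 7 lists, with a vertical axis from 0 and its unit on each panel. Points joined by a line are one list, with circles for tumors and squares for thymus. Density lay lowest on the long arm in all 7 lists, at 4.93 to 13.3 peaks per Mb in tumors and 13.6 to 14.3 in thymus.

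Peaks on the long arm were found again in other lists less often than peaks elsewhere, except in tumor 1. Recurrence is the share of the peaks of a list that overlap a peak of at least 1 other list by 1 bp or more. It was 82.6%, 38.6%, 54.6% and 69.2% on the long arm in tumors 1 to 4, and 34.7%, 46.3% and 50.7% in thymus 2, 3 and 5. On the other 24 chromosomes it was 81.9%, 60.8%, 74.3% and 87.0% in the tumors and 62.8%, 62.0% and 63.6% in thymus. The difference averaged −16.5 ± 9.02 percentage points (SD, n = 7 lists), with 6 of 7 lists lower and tumor 1 higher by 0.74 points (exact two-sided sign-flip test, p = 0.0312, adjusted p = 0.0312). Against the short arm it was −17.9 ± 10.53 points (SD, n = 7 lists; same exact test, p = 0.0312, adjusted p = 0.0312). With tumor 2, tumor 3 or any of the thymus lists left out, both p-values of this test were 0.0625. The difference from the other chromosomes stayed between −18.6 and −15.2 points with any list left out. Recurrence of a list is counted against the other lists, so the 7 values depend on each other. The test treats them as independent, which limits its p-values.

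Recurrence on the long arm had an SD of 18.9 points among tumors and 8.26 points among thymus lists. Tumor 1, with the fewest peaks on the long arm, had the highest recurrence there and ranked 18 among the 26 units counted from the lowest. In each of the other 6 lists the long arm ranked lowest. Peaks found in all 7 lists made up 27.5%, 10.7%, 13.7% and 25.3% of long-arm peaks in tumors 1 to 4 and 9.99%, 10.8% and 10.7% in thymus 2, 3 and 5. On the other 24 chromosomes this share was 31.6%, 24.9%, 28.3% and 40.5% in tumors 1 to 4. In thymus 2, 3 and 5 it was 26.1%, 20.3% and 21.5%. Tumors 1 and 4 thus had the largest shared fraction there as on the long arm, and the long arm was the lower in every list.

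Width and recurrence are tied, so recurrence was also described within classes of width, without a test. Among peaks under 200 bp, recurrence on the long arm minus that on the other chromosomes was −6.63 ± 11.9 points (SD, n = 7 lists, 6 of 7 lower). Among peaks of 200 to 500 bp the difference was −9.20 ± 9.45 points (SD, n = 7 lists, 6 of 7 lower). Among peaks of at least 500 bp it was −7.42 ± 10.8 points (SD, n = 7 lists, 5 of 7 lower). Each of these differences was smaller than the one over all widths, and all 3 were smaller than their own spread over lists. The long arm held 48.2% of its peaks in the narrowest class, against 34.5% on the other chromosomes. Tumor 2 had the lowest recurrence of wide long-arm peaks, 62.7% of 142 peaks, and thymus 5 the highest, 100% of 109 peaks.

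Merging overlapping peaks of the 7 lists gave 2407 regions on the long arm. Of these, 1955 (81.2%) were called in a single list, 784 of them in a tumor and 1171 in a thymus list, where 71.4% of all 98262 regions of the genome were called in a single list. All 7 lists had a peak in 79 long-arm regions (3.28%), where 8.12% of all regions were called in all 7 lists. The short arm had 197 such regions among 1906 (10.3%). In all, 340 regions of the long arm (14.1%), the 79 included, had a peak in at least 1 tumor and at least 1 thymus list, where 21.0% of all regions and 21.1% of those on the other 24 chromosomes did. Regions seen in a single list were thus more frequent on the long arm than in the genome as a whole, and shared regions less frequent.

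**Figure D3:**
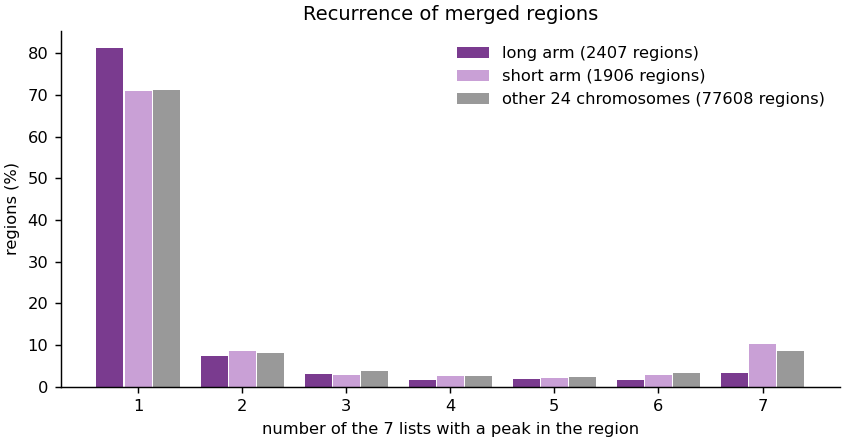
Share of merged regions (vertical axis, percent) by the number of the 7 lists with a peak in them (horizontal axis), for the 2407 regions of the long arm, the 1906 of the short arm and the 77608 of the other 24 chromosomes. The long arm has the tallest bar at 1 list, 81.2%, and the shortest at 7 lists, 3.28%.

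The bases covered by peaks were shared less between lists on the long arm, pair by pair. The Jaccard index, the length covered in both lists over the length covered in either, averaged 0.231 over the 6 tumor pairs on the long arm, 0.435 on the short arm and 0.393 on the other chromosomes. For the 3 thymus pairs it was 0.214 on the long arm, 0.383 on the short arm and 0.351 on the other chromosomes. The 12 pairs of a tumor with a thymus list had 0.192 on the long arm, 0.325 on the short arm and 0.308 on the other chromosomes. The index was lower on the long arm than on the other chromosomes in 21 of 21 pairs, which share lists and so are not independent. The highest index on the long arm was 0.336 between thymus 3 and thymus 5, and the lowest 0.088 between tumor 2 and thymus 2.

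Regions called in several lists were fewer on the long arm whatever their group. Those in 3 lists made up 3.12% of its regions, against 3.88% of all regions, and those in 4 lists 1.54%, against 2.71%. The classes of 1 group below are counted among the same regions. Whether their low counts go beyond this general shortage was not tested, so they are not read as group specificity. No region of the long arm was called in all 4 tumors and no thymus list, where 0.473% of all regions (465 of 98262) were. The short arm had 14 such regions and the other 24 chromosomes 374. In the other direction, 10 long-arm regions (0.415%) were called in all 3 thymus lists and no tumor, where 0.633% of all regions (622) were. Looser classes held 46 long-arm regions (1.91%) with at least 2 tumors and no thymus list, where 4.36% of all regions did, and 66 (2.74%) with at least 2 thymus lists and no tumor, where 3.24% did. The count of thymus-only regions was 40 without thymus 2, 25 without thymus 3 and 24 without thymus 5. Without tumor 2, tumor 4 or thymus 3 there were 3 tumor-only regions each time, and 1 without tumor 1, tumor 3 or thymus 5. Leaving out a list loosens the rule of both classes, so these higher counts follow from the rule. Set against the counts under the full rule, they do not measure how far a class depends on a list. The thymus-only counts without a thymus list share a loosened rule, and the count without thymus 2 was the highest of these, at 40. No share over all regions stands beside any of these counts.

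The 5 thymus-only regions with the widest peaks relative to their lists lay at both ends of the arm and in its middle. The region chr4:71986076-71986943 had peaks over 521, 651 and 572 bp in thymus 2, 3 and 5. At chr4:77898664-77899511 the covered length was 217, 629 and 832 bp, and at chr4:28575080-28576180 it was 1101, 363 and 183 bp. The covered length thus differed little between the thymus lists at the first of these and much at the other ones. The remaining regions were chr4:77957314-77958037, with 277, 355 and 533 bp, and chr4:44521138-44521636, with 199, 310 and 483 bp. None of them had a peak in any tumor, as the choice of the class requires.

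Of the regions called in all 7 lists, 3 of the 5 with the widest peaks stood next to each other near 62.6 Mb. The widest, chr4:62555652-62559241, was covered over 2139, 2295, 3433 and 2492 bp in tumors 1 to 4, against 427, 2407 and 3077 bp in thymus 2, 3 and 5. It held the widest long-arm peak of tumor 1, tumor 3, tumor 4 and thymus 3. Its neighbour chr4:62560188-62562222 was covered over 1450, 1656, 1665 and 1277 bp in the tumors, and over 50, 945 and 1997 bp in thymus. The third, chr4:62546224-62548220, was covered over 1248, 1505, 1814 and 1463 bp in the tumors, and over 97, 575 and 1537 bp in thymus. In each of the 3 regions thymus 2 was far below all other lists, and thymus 5 was within or above the range of the tumors. Peaks of thymus 2 also covered less than those of thymus 3 and 5 on the other chromosomes.

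The other members of that group lay near the end of the chromosome. At chr4:74108597-74110438 peaks covered 769, 1021, 1496 and 608 bp in tumors 1 to 4, against 1282, 1717 and 1744 bp in thymus 2, 3 and 5. At chr4:76838237-76839739 they covered 1309, 1167, 1351 and 603 bp in the tumors, against 1351, 1161 and 1460 bp in thymus. The groups overlapped at both regions, and tumor 4 was the lowest list at each.

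The widest long-arm peak of each list was 2139, 1732, 3433 and 2492 bp in tumors 1 to 4, and 1592, 1800 and 3040 bp in thymus 2, 3 and 5. Those not at 62.6 Mb were chr4:28700780-28702511 in tumor 2, chr4:28595206-28596797 in thymus 2 and chr4:77249958-77252997 in thymus 5. Both ends of the arm were thus represented, the near one in tumor 2 and thymus 2.

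Along the arm, peaks were unevenly spread. The densest 1 Mb bins started at 73, 77, 72, 28 and 76 Mb, with 39.1, 34, 32.4, 28.4 and 23.1 peaks as means over the 7 lists. The sparsest started at 59, 46 and 63 Mb, with 3.71, 4 and 4.86 peaks. The bin at 73 Mb had 32, 37, 37 and 31 peaks in tumors 1 to 4 and 38, 45 and 54 in thymus 2, 3 and 5, and held 15 of the 79 regions called in all 7 lists. The bin at 28 Mb had 12, 31, 29 and 9 peaks in the tumors and 67, 25 and 26 in thymus, so thymus 2 alone raised the thymus values there.

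After the profile was seen, the arm was divided into stretches of 28 to 31 Mb, 31 to 70 Mb and 70 Mb to the end, which are described here without a test. In the middle stretch density was 14.8%, 51.7%, 42.2% and 25.3% of that of the other chromosomes in tumors 1 to 4, and 48.4%, 40.3% and 38.7% in thymus 2, 3 and 5. In the last stretch it was 91.2%, 101%, 127.9% and 113% in the tumors and 131%, 124% and 139% in thymus. The last stretch was thus at or above the density of the other chromosomes in 6 of 7 lists, and the middle stretch far below it in all 7. The first stretch had 51.6% to 100.5% in tumors and 75.5% to 147% in thymus, above the middle stretch in all 7 lists and, in thymus 2, also above the last.

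Chromosome ends elsewhere were also compared with the last stretch, since that stretch is itself an end. Over the final stretch of the same length on the other 24 chromosomes, density was 17.1, 18.7, 21.4 and 13.3 peaks per Mb in tumors 1 to 4 and 23.9, 26.8 and 26.3 peaks per Mb in thymus 2, 3 and 5. The end of chromosome 4 had 15.3, 21.4, 23.9 and 14.3 peaks per Mb in the tumors and 26.7, 31.2 and 33.1 peaks per Mb in thymus. It exceeded the other ends in 6 of 7 lists and fell short of them in tumor 1.

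Recurrence and median width were higher in the last stretch than in the middle one in all 7 lists. In the middle stretch recurrence was 69.1%, 24.3%, 35.2% and 51.2% in tumors 1 to 4 and 19.7%, 28.68% and 35.3% in thymus 2, 3 and 5. In the last stretch it was 92.7%, 76.9%, 79.3% and 87.9% in the tumors and 60.6%, 73.0% and 67.5% in thymus, above the value of the other chromosomes in each list but thymus 2. The middle stretch held 1632 of the 2407 regions but only 20 of the 79 called in all 7 lists, and the last stretch held 541 regions with 53 of the 79. Single-list regions made up 88.1% of the middle stretch and 63.4% of the last, where the whole genome had 71.4%. Median width was 169 to 235 bp in tumors and 135 to 154 bp in thymus in the middle stretch, against 259 to 396 bp in tumors and 182 to 275 bp in thymus in the last. Minus the median of the other chromosomes, the last stretch gave −101.5, 6, −31 and −82 bp in tumors 1 to 4. In thymus 2, 3 and 5 it gave 0, 65 and 18 bp. In the first stretch recurrence was 31.2% to 84.6% in tumors and 36.7% to 70.4% in thymus. It was above the middle stretch in all 7 lists, and below the last stretch in all but tumor 3 and thymus 5. Median width in the first stretch was 144.5 to 325.5 bp in tumors and 153 to 188.5 bp in thymus. That width was above the middle stretch in every list but tumor 4, and below the last stretch in every list but thymus 2.

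**Figure D4:**
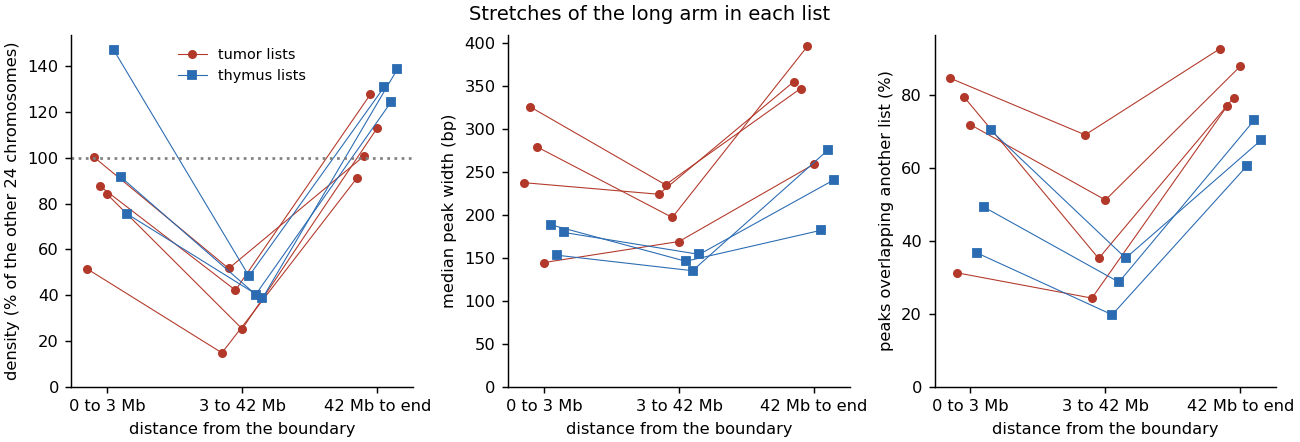
Values of each list in stretches of the long arm (horizontal axis, distance from the boundary: 0 to 3 Mb, 3 to 42 Mb and 42 Mb to the end), with circles for tumors, squares for thymus and a vertical axis from 0 with its unit on each panel. The dotted line in the density panel marks the density of the other 24 chromosomes as 100%. The middle stretch is lowest in density, at 14.8% to 51.7% in tumors and 38.7% to 48.4% in thymus.

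Peaks of the long arm were less clustered than peaks elsewhere by the measures as planned. In forms adjusted for density no difference passed, which does not show that clustering was equal. The variance-to-mean ratio of peak counts in 100 kb bins, which is 1 for even random placement, was 2.20, 2.77, 2.24 and 1.97 on the long arm in tumors 1 to 4, and 4.44, 2.51 and 2.60 in thymus 2, 3 and 5. On the other chromosomes it was 3.87, 4.53, 3.95 and 3.55 in the tumors and 4.75, 5.24 and 5.04 in thymus. The log2 ratio averaged −0.76 ± 0.31 (SD, n = 7 lists, 7 of 7 lower; exact two-sided sign-flip test, p = 0.0156, adjusted p = 0.0208), and against the short arm −0.67 ± 0.47 (6 of 7 lower; same test, p = 0.0312, adjusted p = 0.0312). The list above the short arm was thymus 2, at 0.27. This ratio grows with the mean count. When its excess over 1 was divided by the mean count, a form chosen after seeing the data, the log2 ratio was −0.17 against the other chromosomes (same exact test, p = 0.344) and 0.14 against the short arm (p = 0.562). Against the other chromosomes this form was higher on the long arm in tumor 1 and thymus 2 and lower in the remaining lists. Against the short arm the lists went both ways.

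Spacing gave the same picture. The share of peaks with the next peak of the same list within 10 kb was 14.6%, 37.0%, 20.04% and 14.3% on the long arm in tumors 1 to 4, and 28.8%, 30.8% and 28.9% in thymus 2, 3 and 5. On the other chromosomes it was 42.2%, 46.4%, 40.1% and 38.3% in the tumors and 47.0%, 53.0% and 51.9% in thymus. The difference was −20.7 ± 5.80 points against the other chromosomes and −21.3 ± 8.32 points against the short arm (SD, n = 7 lists, 7 of 7 lower; exact two-sided sign-flip test, p = 0.0156, adjusted p = 0.0208 for each). Divided by the share that even random placement at the same density gives, also chosen after seeing the data, the log2 ratio was −0.063 against the other chromosomes (same exact test, p = 0.453) and 0.092 against the short arm (p = 0.5). Against the other chromosomes this form was higher on the long arm in tumors 1 and 2 and lower in the remaining lists. Against the short arm the lists again went both ways.

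Dense groups of peaks did occur on the arm, in some lists only. Runs of at least 5 peaks with gaps within 10 kb numbered 0, 17, 3 and 0 in tumors 1 to 4 and 7, 5 and 9 in thymus 2, 3 and 5. They held 0%, 17.7%, 3.83% and 0% of long-arm peaks in the tumors and 11.9%, 5.03% and 7.62% in thymus, against 17.4% to 26.4% in tumors and 23.4% to 31.1% in thymus on the other chromosomes. Tumor 2 had the most runs, and its largest held 16 peaks at chr4:28676221-28709820.

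The largest run of any list was in thymus 2, at chr4:28552272-28617186, a window of 64.9 kb. It held 0, 0, 12 and 1 peaks in tumors 1 to 4, against 48, 5 and 13 in thymus 2, 3 and 5. Peaks covered 0%, 0%, 4.93% and 0.214% of the window in the tumors and 31.9%, 1.48% and 3.56% in thymus. The window was picked and bounded by the run of thymus 2 itself, so the lead of thymus 2 in it follows from the choice. Among the other lists, tumor 3 was above thymus 3. Thymus 2 also had the highest variance-to-mean ratio of the 7 lists. With peaks in this window and its surroundings left out of all lists, a choice made after seeing the data, the tumor minus thymus difference of that ratio was −0.15, against −0.88 with them.

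Some windows held peaks in all 7 lists, though fewer than 5 in some of them. In the window of 16.0 kb at chr4:62546224-62562222, which contains the 3 shared regions near 62.6 Mb, peaks numbered 3, 7, 9 and 3 in tumors 1 to 4 and 6, 7 and 5 in thymus 2, 3 and 5. They covered 30.2%, 34.9%, 63.9% and 32.7% of it in the tumors and 4.81%, 24.5% and 42.6% in thymus. A window of 18.6 kb at chr4:77249450-77268009 had 4 peaks in each tumor and 5, 7 and 6 in thymus, covering 8.92% to 19.9% in tumors and 13.2% to 33.8% in thymus. Peak counts of the groups overlapped in the first of these windows and did not in the second, where thymus lists had more. The second window was picked and bounded by the run around the widest long-arm peak of thymus 5, so its counts cannot compare the groups. Thymus lists were also denser on the other chromosomes, at 20.4 to 25.1 peaks per Mb, against 12.7 to 21.2 in tumors.

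**Figure D5:**
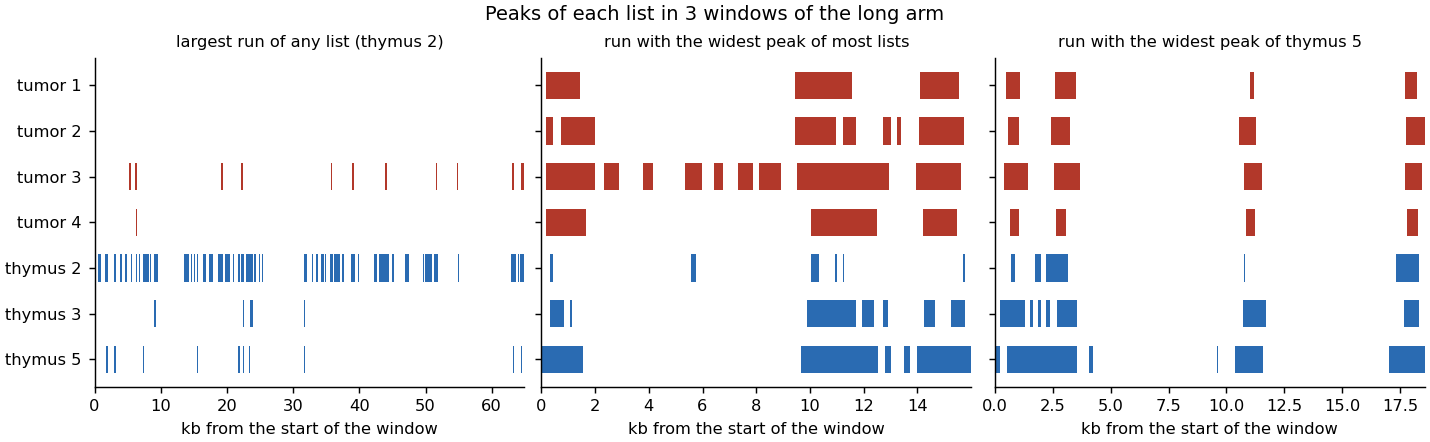
Peaks of each list (rows, tumors above thymus) as bars in 3 windows of the long arm, against the distance from the start of each window (horizontal axis, kb). The first window was picked and bounded by the largest run of any list, that of thymus 2. It is filled in thymus 2 (48 peaks) and near empty in tumors 1, 2 and 4 (0 to 1 peaks). The other windows hold peaks in all 7 lists.

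Tumors and thymus were compared over the 35 ways to split 7 lists into 4 and 3, for which the smallest two-sided p is 0.0286. None of 8 measures passed, with or without adjustment. The number of long-arm peaks averaged 433.5 ± 206 in tumors and 696 ± 17.1 in thymus (SD, n = 4 and 3; exact permutation test, p = 0.0857, adjusted p = 0.305 over 8 tests). The difference of −262.5 peaks was −53.7 with peaks at least as wide as the largest list minimum (p = 0.714) and −66.9 with an equal number of peaks per list (p = 0.371, both by the exact permutation test). The log2 ratio of density to the other chromosomes averaged −1.11 ± 0.50 in tumors and −0.73 ± 0.14 in thymus (exact permutation test, p = 0.314, adjusted p = 0.359), with −0.81 in thymus 3. The difference of −0.38 was −0.16 without tumor 1. Tumor lists had the larger SD in both measures, a contrast limited by the possible pooling of fish in thymus libraries. In bulk lists, fewer cells with a mark and less mark per cell cannot be told apart.

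Median width was the measure closest to separation. It averaged 243 ± 41.5 bp on the long arm in tumors and 169 ± 9.54 bp in thymus (SD, n = 4 and 3; exact permutation test, p = 0.0571, adjusted p = 0.305), and the groups did not overlap. Median widths on the other chromosomes did not overlap either, at 341 to 456.5 bp in tumors and 182 to 223 bp in thymus. The groups lay further apart there than on the long arm, so the separation in width was not particular to the long arm. Relative to the other chromosomes of the same list, the difference was −148 ± 49.0 bp in tumors and −36 ± 12.2 bp in thymus, again without overlap (exact permutation test, p = 0.0571, adjusted p = 0.4 over 14 such contrasts). On the log2 scale these were −0.69 ± 0.23 in tumors and −0.27 ± 0.08 in thymus (exact permutation test, p = 0.0571, adjusted p = 0.4). The narrowest peak a list holds also differed between the groups, at 111 ± 26.5 bp in tumors and 52.3 ± 2.08 bp in thymus, and with peaks at least as wide as the largest of these minimums in every list the tumor minus thymus difference in long-arm median width was 34.8 bp (exact permutation test, p = 0.200), against 74 bp with all peaks. The difference in the gap to the other chromosomes was then −80.8 bp, against −112 bp (log2 −0.27, against −0.42). With an equal number of the widest peaks per list these differences were 32.6 bp and −34.5 bp (log2 −0.14). Among peaks of at least 500 bp, chosen after seeing the data, the direction turned to −28.25 bp for tumors minus thymus in median width.

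The remaining measures overlapped between the groups. Covered length was 0.151 ± 0.081 Mb in tumors and 0.176 ± 0.031 Mb in thymus (SD, n = 4 and 3; exact permutation test, p = 0.600). Recurrence was 61.3% ± 18.9 in tumors and 43.9% ± 8.26 in thymus (exact permutation test, p = 0.200), and the share of the list 1.54% ± 0.49 in tumors and 1.90% ± 0.24 in thymus (p = 0.286). Without tumor 1, the difference in recurrence was 9.26 points, against 17.4 with it, and that in the share of the list −0.16 points, against −0.36. The covered-length difference of −0.025 Mb was between −0.055 Mb without tumor 2 and −0.00020 Mb without tumor 4, and −0.0045 Mb without tumor 1. The variance-to-mean ratio was 2.30 ± 0.34 in tumors and 3.18 ± 1.09 in thymus (exact permutation test, p = 0.114), with a difference of −0.88 that shrank to −0.26 without thymus 2. Close spacing was 21.5% ± 10.7 in tumors and 29.5% ± 1.11 in thymus (exact permutation test, p = 0.229).

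The list of tumor 1 also gave the strength of each peak, so that a single list could be described with no replicate. The median fold enrichment over the lysate was 3.28 on the long arm, 3.43 on the short arm and 3.49 on the other chromosomes, and the median −log10 p was 5.72, 7.51 and 6.74 in that order. Peaks also found in all other 6 lists were weaker on the long arm, with a median fold enrichment of 3.66, against 4.60 on the other chromosomes. Their median width was 427 bp on the long arm and 785 bp on the other chromosomes. Peaks found in no other list had medians of 2.89 on the long arm and 2.82 on the other chromosomes. Those found in 1 to 5 other lists, 136 on the long arm, had medians of 3.22 and 3.29. The gap was thus largest in the 68 long-arm peaks found in all other 6 lists. The long-arm peak of tumor 1 with the highest fold enrichment, 7.94, was chr4:74141316-74141924, in the dense stretch at the end of the chromosome, and all 6 other lists had a peak there.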

How the data were processed

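H3K27ac peak lists of 4 tumor and 3 thymus samples were analysed, and the 7 input libraries were used only through the authors' peak calling. The authors aligned single-end reads of 50 bp to GRCz11 (Bowtie2, default settings), dropped duplicate reads with SAMtools, and ran MACS2 in broad mode at p = 0.001, one sample at a time against lysate. No filter on mapping quality is stated, so reads from repeated sequence may have been placed at one of several copies. The deposited lists give peak positions, with no signal or other value in 6 of them. In tumor 1 the deposited columns further include the score of each peak and its fold enrichment over lysate, a ratio. The authors' −log10 p-value and −log10 q-value columns stand beside them in that list. Depth is unknown.

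Groups came from the labels. Positions are 1-based. Length was taken from 28 Mb to the last peak end on chromosome 4, and to the last peak end on the other chromosomes. Within-list differences were tested by exact two-sided sign-flip over all sign patterns of the 7 lists, and tumors against thymus by exact two-sided permutation over 35 splits, each family adjusted by Benjamini-Hochberg, with a threshold of 0.05. Both tests treat the lists as independent, which recurrence values are not, as each is counted against the other lists. The procedure was tested on simulated data. Regions named are the 5 of each class whose peak widths ranked highest within their lists (median percentile), the 5 densest and 3 sparsest 1 Mb bins, and the widest peak of each list. The runs and stretches were chosen after their values were seen. The members and measures were chosen with earlier results of these data known.

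Alternatives were boundaries at 30 and 35 Mb, peaks no narrower than the largest minimum width of any list, an equal number of peaks per list (the 19809 widest), tumor 2 without its widest stretches, length by occupied 100 kb bins, 50% overlap, spacing of 5 kb, 1 Mb bins, 1 kb bins, each list left out and a replicate block. Chosen after the data were seen were a minimum width of 500 bp, forms adjusted for density, log2 widths and leaving out the cluster of peaks near the boundary. Python 3.11.15, NumPy 2.4.6, pandas 2.3.3 and matplotlib 3.10.9 were used. No genome or annotation of GRCz11 was used, so no sequence or gene is given.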

Additional observations from a re-analysis of the deposited data

How the results depend on the processing

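Lower density, covered length and median width of the long arm kept their direction and their call under every alternative run, against the other chromosomes and against the short arm. Of 100 values of the long-arm comparisons under alternatives other than leaving out a list, 88 kept their direction and call, 8 lost the call and 4 reversed. All 12 of these exceptions concern clustering or close spacing. Against the short arm, the log2 ratio of clustering was −0.50 with peaks at least as wide as the largest list minimum and −0.30 with an equal number of peaks per list, both without the call. With 1 Mb bins it was −0.10 against the other chromosomes and −0.075 against the short arm. With peaks of at least 500 bp it was 0.046 and 0.18, and close spacing was −8.10 and −6.81 points. Adjusted for density, the log2 ratio of clustering was −0.17 and 0.14 and that of close spacing −0.063 and 0.092.

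Leaving out a list kept 68 of 84 such calls. The 16 lost were recurrence, at −18.6 to −15.2 points against the other chromosomes and −20.0 to −16.1 against the short arm, and clustering against the short arm, at −0.83 to −0.57. With 6 lists the smallest p of the sign-flip test is 0.0312.

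For tumors minus thymus, peaks of at least 500 bp turned median width to −28.25 bp, recurrence to −3.25 points and the width gap to the other chromosomes to 89.7 bp and 0.13 (log2), and gave a variance-to-mean difference of −1.45 (exact permutation test, p = 0.0286). Adjusted for density, the direction also turned, on unlike scales. The difference was 0.094 for the variance-to-mean ratio, as a plain difference of its excess over the mean count, and 0.20 for close spacing, on the log2 scale. Leaving out a list kept the direction of all 70 values, though their size moved, and no such test can pass, the smallest p being 0.1 or 0.0667. The replicate block used numbers 2 and 3, the only ones both groups share, with a smallest p of 0.5. The numbers mark no shared fish, and 2 pairs cannot show a pairing. It turned covered length to 0.054 Mb higher in tumors and kept the direction of the other 9 values. Tumor-only regions numbered 2 with peaks at least as wide as the largest list minimum, and 1 each with an equal number of peaks, 1 kb bins or peaks of at least 500 bp, from 0 to 3 with a list left out. Thymus-only regions numbered 4 with 1 kb bins, 1 with peaks of at least 500 bp, and 10 to 40 with a list left out. No share over all regions stands beside these region counts, and each alternative also changes which regions are counted in the whole genome. The counts therefore cannot show a change particular to the long arm. The cause of the changes above was not tested.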
